A study of Mus musculus with 4 samples.

Results

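Interferon-stimulated genes were examined in the tibial bone marrow of obese mice with and without exercise. The set holds 39 genes that were listed by symbol as well-known targets of interferon, from the transcription factors of the response to its antiviral effectors, and all 39 were found among the 55401 genes of the transcript tables. Male wild-type C57/B6 mice on a high-fat diet (HFD) from 8 weeks of age gave 2 libraries of the obesity group (Ob) and 2 of the exercise group (Ob + Exe), whose mice also ran on a treadmill at moderate intensity for 12 weeks. Both groups were obese on the HFD, and lean mice were not analysed here. The labels number the libraries but name no animals, so the p values measure the spread between these libraries.

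The labels give bone marrow as the tissue but also mesenchymal stem cells and fibroblast, whereas the methods describe marrow spun out of the bone. The summed level of 14 neutrophil markers was 29254 to 68023 FPKM, and that of 15 markers of mesenchymal stromal cells and fibroblasts was 128 to 188 FPKM. The mean of log2(FPKM + 0.1) over these 15 markers was 1.23 to 1.65. The fibroblast marker Pdgfra lay well below that mean, at 0.265 to 0.385 FPKM, and does not stand for the list. The libraries were therefore read as whole marrow. FPKM counts fragments per length of transcript and per size of library, so that levels can be compared between genes. All levels below are gene FPKM after a scaling of the libraries with factors of 0.949 to 1.03, and 8702 to 9952 Mb of aligned bases stood behind each library.

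Interferons are cytokines that cells release on contact with viral nucleic acid and other danger signals. Type I interferons bind a receptor made of IFNAR1 and IFNAR2, whose kinases JAK1 and TYK2 activate STAT proteins, and these join IRF9 in a complex that binds the interferon-stimulated response element (ISRE) of its target genes. Type II interferon (interferon gamma) acts through IFNGR1 and IFNGR2 and leads to the binding of the gamma-activated site (GAS). In bone marrow, interferon is known to drive resting hematopoietic stem cells into the cell cycle.

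Promoters were searched for the elements through which interferon acts, and a few that hold them are printed to show what many of the members share beyond their name. RefSeq promoter windows (GRCm38.p6) of 300 bases, 250 of them before the start of the transcript, were found for 30 of the 39 genes. The ISRE core was searched as GAAANNGAAA or, on the other strand, TTTCNNTTTC, and the GAS core as TTCNNNGAA, which reads the same on both strands. An ISRE core stood in the windows of 19 of the 30 genes (63.3%) and in 3.99% of the 27025 genes with a window, and a GAS core stood in 8 of the 30 (26.7%) and in 9.55% of all genes. Both cores were found in 5 genes, and they overlap in Bst2 and Ifitm3. In the stretches below, which run 5′ to 3′ along the gene up to the base before the start, capitals mark the cores, and cores that overlap make one longer run. Isg15 (chr4:156200819-156200916, minus strand) held 3 overlapping ISRE cores, Ifit1 and Ifit3 held a pair each, Oas1a (chr5:120907526-120907643, minus strand) and Igtp (chr11:58199491-58199555, plus strand) held both elements, and Irf1 (chr11:53769904-53770013, plus strand) held only a GAS core.
Isg15: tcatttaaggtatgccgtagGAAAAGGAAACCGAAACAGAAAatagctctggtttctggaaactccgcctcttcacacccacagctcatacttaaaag
Ifit1: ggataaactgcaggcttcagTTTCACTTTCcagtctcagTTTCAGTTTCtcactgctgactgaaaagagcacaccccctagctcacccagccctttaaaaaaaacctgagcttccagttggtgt
Ifit3: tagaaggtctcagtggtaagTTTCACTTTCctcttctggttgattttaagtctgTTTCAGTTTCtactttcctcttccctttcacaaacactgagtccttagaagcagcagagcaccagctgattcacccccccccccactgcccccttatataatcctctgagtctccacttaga
Oas1a: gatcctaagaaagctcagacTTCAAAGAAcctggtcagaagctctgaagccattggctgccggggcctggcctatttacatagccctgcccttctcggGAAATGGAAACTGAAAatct
Igtp: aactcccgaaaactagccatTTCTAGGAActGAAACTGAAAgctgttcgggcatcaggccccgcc
Irf1: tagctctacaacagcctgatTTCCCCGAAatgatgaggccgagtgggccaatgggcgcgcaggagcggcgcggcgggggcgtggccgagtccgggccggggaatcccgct
The Ifit stretches are at chr19:34640765-34640888 (Ifit1) and chr19:34583353-34583528 (Ifit3), both on the plus strand. No core was found in the window of Oasl1. A match of letters is a description of the window and not a measured binding site.

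All 39 genes were expressed above the minimum of 0.1 FPKM, at mean levels from 1.36 FPKM (Ifi44) to 268 FPKM (Ifitm3) with a median of 14.8 FPKM. Each had at least 81.5 read equivalents in every library (coverage times length divided by the read length of 150 bases). Ifitm3, a membrane protein that blocks the entry of viruses, had 236 and 305 FPKM in Ob and 237 and 293 FPKM in Ob + Exe. Isg20, an exonuclease that degrades RNA, had 198 and 209 FPKM in Ob and 181 and 199 FPKM in Ob + Exe. Rsad2 (viperin), which makes a chain-terminating nucleotide, had 93.8 and 150 FPKM in Ob and 85.7 and 114 FPKM in Ob + Exe. The second Ob library was on top for each of these, by a small margin for Ifitm3 and Isg20 and a wider one for Rsad2. Below them came Isg15, a ubiquitin-like protein that is attached to other proteins, with 68.1 and 133 FPKM in Ob and 105 and 55.1 FPKM in Ob + Exe. Irf9, the DNA-binding subunit of the ISRE-binding complex, had 34.5 and 66.7 FPKM in Ob and 42.8 and 43.0 FPKM in Ob + Exe. The first Ob library lay between the Ob + Exe libraries for Isg15 and below both for Irf9.

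Most of the variation lay inside the Ob group. The second Ob library (Ob replicate 2) had the highest value of all 4 libraries for 37 of the 39 genes, against 24% of all 18596 genes tested. It exceeded the first Ob library (Ob replicate 1) for all 39 genes, against 49.8% of all genes tested, by a factor of 1.06 (Isg20) to 3.32 (Ifit3) with a median of 1.67. A difference of at least 2-fold was seen in 13 members (33.3%) and in 8.15% of all genes. The 2 exceptions to the order were Irf1 and Bst2 (tetherin, which holds budding viruses at the cell surface), which were highest in Ob + Exe replicate 1. The median size of the log2 difference between the Ob libraries was 0.73 for the members and 0.26 for the 12405 tested genes of at least 1 FPKM. Between the Ob + Exe libraries it was 0.23 for the members and 0.43 for those genes. The second highest library was Ob + Exe replicate 1 for 19 genes, Ob + Exe replicate 2 for 13 and Ob replicate 1 for 7.

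**Figure D1:**
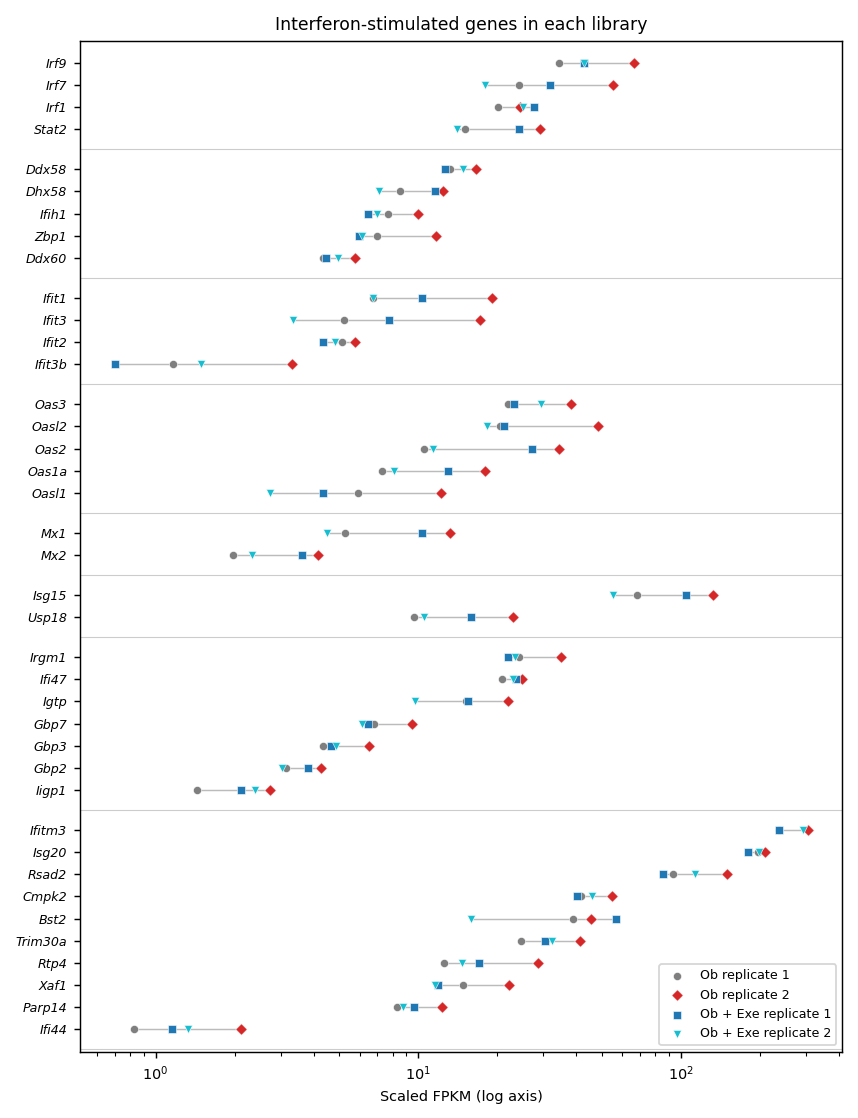
Scaled FPKM (log axis) of the 39 genes in each of the 4 libraries, 1 marker per library, in blocks by role from transcription factors at the top to other effectors at the bottom. The second Ob library (red diamond) is the highest for 37 genes, all but Irf1 and Bst2.

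The median excess of Ob replicate 2 was listed by role, over 2 to 10 genes each and with no test between roles. It was widest in the IFIT family, with a median log2 difference from Ob replicate 1 of 1.46. This family includes proteins that bind foreign RNA at its end. Roles were wide within themselves, from 0.16 (Ifit2) to 1.71 (Ifit3) in this family and from 0.27 (Irf1) to 1.19 (Irf7) in the transcription factors. Ifit3 had 5.20 and 17.3 FPKM in Ob and 7.73 and 3.34 FPKM in Ob + Exe. Ifit3b, its near-identical neighbour, had 1.17 and 3.30 FPKM in Ob and 0.698 and 1.49 FPKM in Ob + Exe. Ifit1 had 6.73 and 19.1 FPKM in Ob and 10.3 and 6.72 FPKM in Ob + Exe. In all 3 genes Ob replicate 2 stood alone at the top and Ob replicate 1 within the range of Ob + Exe, whereas Ifit2 was nearly flat with 5.15 and 5.76 FPKM in Ob and 4.35 and 4.82 FPKM in Ob + Exe. The OAS family, which includes enzymes that make the 2′-5′ oligoadenylates that switch on RNase L, followed with a median of 1.24. Oas2 had 10.5 and 34.3 FPKM in Ob and 27.1 and 11.4 FPKM in Ob + Exe. Its relative Oasl2 had 20.5 and 48.6 FPKM in Ob and 21.3 and 18.3 FPKM in Ob + Exe. Oas2 thus had 1 high and 1 low library in each group, and Oasl2 a single high library.

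Medians of the same log2 difference were 1.18 for the dynamin-like Mx1 and Mx2, 1.11 for Isg15 and Usp18 (the protease that removes ISG15), and 0.94 for the transcription factors. Irf7, which amplifies type I interferon production, had 24.2 and 55.4 FPKM in Ob and 31.7 and 18.02 FPKM in Ob + Exe. Stat2 had 15.2 and 29.1 FPKM in Ob and 24.2 and 14.1 FPKM in Ob + Exe. Usp18 had 9.62 and 23.0 FPKM in Ob and 15.8 and 10.5 FPKM in Ob + Exe. These 3 genes shared one order of libraries at the top, with Ob replicate 2 above Ob + Exe replicate 1. The excess was smaller in the other effectors (0.58), the interferon-inducible GTPases of the IRG and GBP families (0.53), which attack the vacuoles of intracellular pathogens, and the RNA and nucleic acid sensors (0.40). Among the sensors, Ddx58 (RIG-I) had 13.2 and 16.6 FPKM in Ob and 12.7 and 14.9 FPKM in Ob + Exe.

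Further members showed how the 4 libraries spread. Mx1 had 5.27 and 13.3 FPKM in Ob and 10.4 and 4.50 FPKM in Ob + Exe. Mx2 had 1.97 and 4.15 FPKM in Ob and 3.61 and 2.33 FPKM in Ob + Exe. Oas1a had 7.26 and 18.05 FPKM in Ob and 13.03 and 8.13 FPKM in Ob + Exe. In these genes, as in Oas2 and Isg15, each group had a higher and a lower library. Rtp4 (12.5 and 28.6 FPKM in Ob, 17.1 and 14.7 FPKM in Ob + Exe) and Ifi44 (0.829 and 2.12 FPKM in Ob, 1.15 and 1.33 FPKM in Ob + Exe) instead had closely matched Ob + Exe libraries between the Ob values. Bst2 had 39.1 and 45.5 FPKM in Ob and 56.6 and 15.9 FPKM in Ob + Exe, the widest difference between the Ob + Exe libraries among the members. Ifi47 was nearly flat, with 20.9 and 24.9 FPKM in Ob and 23.6 and 22.9 FPKM in Ob + Exe. Cmpk2, a nucleotide kinase next to Rsad2, differed more, with 41.6 and 54.7 FPKM in Ob and 40.3 and 45.9 FPKM in Ob + Exe.

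**Figure D2:**
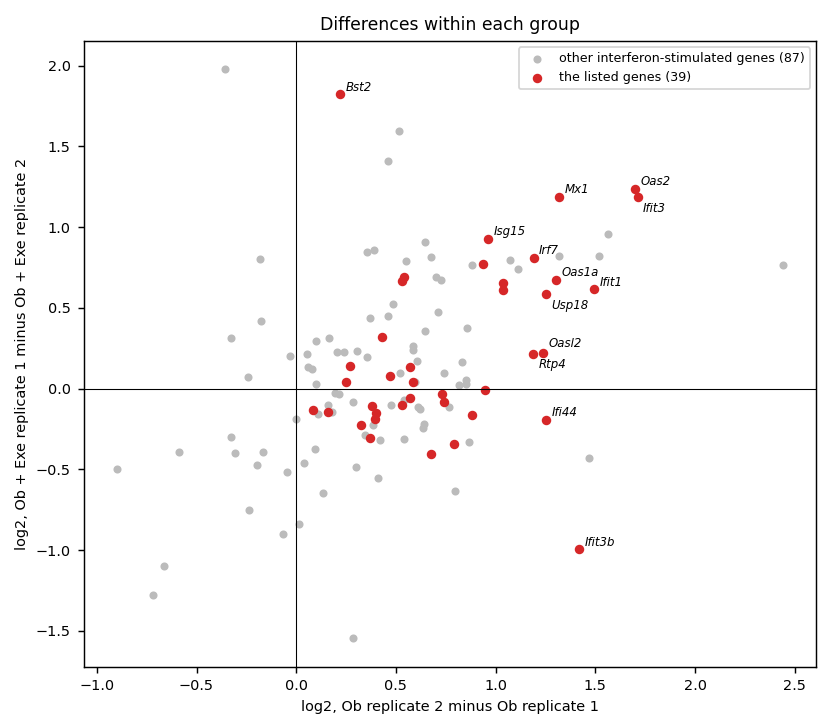
The log2 difference between the Ob libraries (x axis, Ob replicate 2 minus Ob replicate 1) against that between the Ob + Exe libraries (y axis, Ob + Exe replicate 1 minus Ob + Exe replicate 2), 1 point per gene. All 39 listed genes (red) lie to the right of 0, as do 69 of 87 other interferon-stimulated genes (grey), while 22 of the 39 lie above 0 on the y axis.

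The comparison of the groups asked whether exercise under the HFD moved the interferon-stimulated genes. In the test across all genes (limma on log2 values, with 0.1 added to the FPKM), 35 of the 39 genes were lower in Ob + Exe and 4 were higher (Irf1, Iigp1, Ifi47 and Mx2, of which Ifi47 and Mx2 changed sign under other scalings). The median log2 fold change was −0.18, against −0.02 over all genes tested. Calls needed a log2 fold change larger than 1 in size together with an unadjusted p under 0.05. By this rule 1 of the 39 genes was called, lower in Ob + Exe, where 3.71% of all genes were called in either direction, 2.73% lower and 0.979% higher. After Benjamini-Hochberg adjustment over all genes tested by limma no member was under 0.05, with adjusted p values from 0.96 to 0.998, and 1 member was under an unadjusted 0.05. Over all genes 933 had an unadjusted p under 0.05 and none passed the adjustment. For single values, an exact two-sided permutation test of 2 against 2 libraries cannot go below p = 0.333.

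The called gene was Oasl1 (chr5:114923240-114937915, GRCm38, plus strand), which is known to hold back the translation of Irf7. It had 5.90 and 12.2 FPKM in Ob and 4.33 and 2.72 FPKM in Ob + Exe, so that the groups did not overlap and Ob was the higher one. The means were 9.07 ± 4.48 in Ob and 3.53 ± 1.14 in Ob + Exe (SD, n = 2 each), on 319 to 1709 read equivalents per library. The log2 fold change was −1.28 ± 0.45 (SE; limma, unadjusted p = 0.0303, Benjamini-Hochberg adjusted p = 0.96). The call was lost without any one library. The log2 fold change was −0.77 without Ob replicate 2 and −0.96 without Ob + Exe replicate 2, and it was −1.81 without Ob replicate 1 and −1.61 without Ob + Exe replicate 1, where the unadjusted p rose to 0.0548 and 0.0624 (limma).

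The groups were apart, with Ob + Exe on the lower side, in 7 of the 39 genes (Oasl1, Ifit2, Zbp1, Ifih1, Irgm1, Gbp7 and Xaf1), which is 17.9% against 18.7% of all genes tested. Ob + Exe was on the upper side without overlap in 1 member (Irf1), against 14% of all genes. In the other 31 genes the groups overlapped. Xaf1, an antagonist of the apoptosis inhibitor XIAP, had 14.8 and 22.3 FPKM in Ob and 11.9 and 11.6 FPKM in Ob + Exe, with a log2 fold change of −0.62 ± 0.27 (SE). Zbp1, a sensor of Z-form nucleic acid that triggers necroptosis, had 7.004 and 11.7 FPKM in Ob and 5.96 and 6.12 FPKM in Ob + Exe. Ifih1 (MDA5), a sensor of long double-stranded RNA, had 7.65 and 10.002 FPKM in Ob and 6.44 and 6.96 FPKM in Ob + Exe. In these genes the Ob + Exe libraries were close to each other and the nearest Ob library was Ob replicate 1.

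The GTPases Irgm1 and Gbp7 showed the same order. Irgm1 had 24.3 and 35.1 FPKM in Ob and 21.9 and 23.5 FPKM in Ob + Exe. Gbp7 had 6.79 and 9.46 FPKM in Ob and 6.46 and 6.11 FPKM in Ob + Exe. Igtp, another GTPase of the IRG family, had 15.2 and 21.98 FPKM in Ob and 15.5 and 9.73 FPKM in Ob + Exe, and its groups overlapped. Irf1, the factor with only a GAS core in the printed promoter, went the other way with 20.2 and 24.4 FPKM in Ob and 27.6 and 25.0 FPKM in Ob + Exe. Its log2 fold change was 0.24 ± 0.22 (SE), and the closest libraries of the groups were 24.4 and 25.0 FPKM. The log2 fold changes of the 12 members with the smallest p ran from −1.28 (Oasl1) to 0.24 (Irf1), and those of all members other than Oasl1 were at most 0.89 in size.

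The mean log2 level over the 39 genes gives 1 score per library. The score of the Ob libraries was 3.57 and 4.36, that of the Ob + Exe libraries 3.81 and 3.55. The means were 3.97 ± 0.56 in Ob and 3.68 ± 0.18 in Ob + Exe (SD, n = 2 each), a difference of −0.29 that was smaller than the pooled SD of 0.42. Ob replicate 1 and Ob + Exe replicate 2 were nearly level, and Ob replicate 2 was the only library above 4. Over all genes tested the same mean was 1.68 and 1.67 in the Ob libraries, against 1.55 and 1.58 in those of Ob + Exe. The scaling acts on this mean without fixing it, so that it does not show how alike the libraries were. It was lower in both Ob + Exe libraries, with a group difference of −0.11 in the same direction as the score difference. Over the members the Ob libraries were 0.79 apart.

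**Figure D3:**
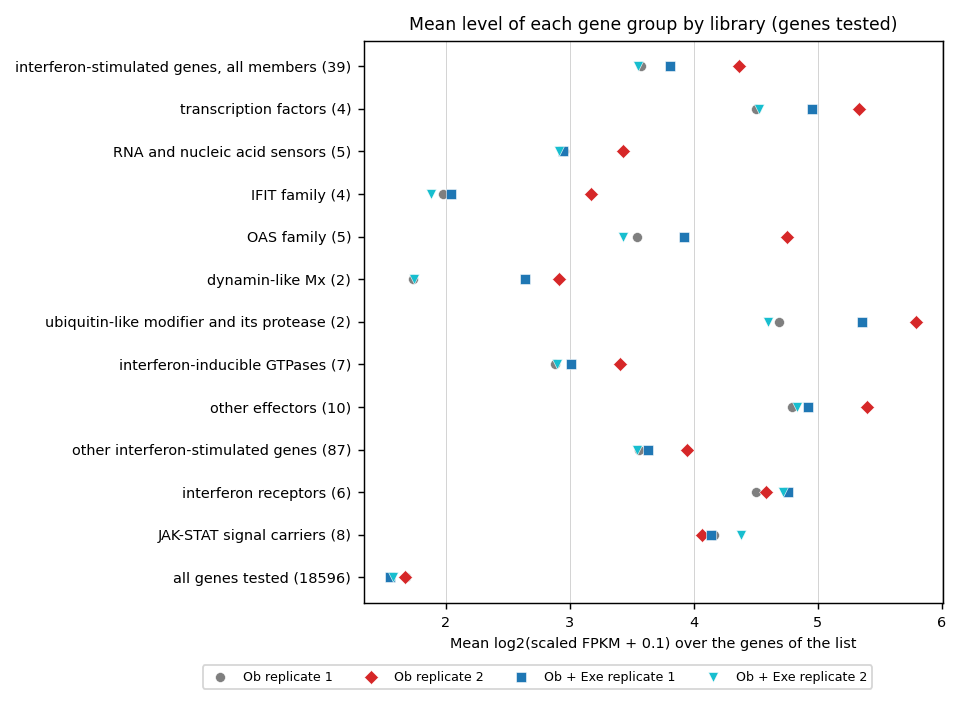
Mean log2(scaled FPKM + 0.1) of each gene group (x axis) in the 4 libraries, 1 marker per library, with the number of genes tested in parentheses. Ob replicate 2 (red diamond) is at the right end of every group of listed genes, at 4.36 over all 39, and is not at the right end for the receptors or the JAK-STAT carriers, whereas its mean was also the highest for the lists of nucleic acid sensing (3.38) and of negative regulators (3.58), which are not plotted.

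Without Ob replicate 2 the direction of the group difference changed for most members. The upward shift itself was set by the choice of library, since Ob replicate 2 lay above Ob replicate 1 in all 39 genes. With the remaining 3 libraries 14 genes were lower and 25 higher in Ob + Exe, the median log2 fold change was 0.10, and none of the 39 genes was called (limma, also none at an unadjusted p under 0.05). Over all genes with a fit, 9566 of 18010 were lower in Ob + Exe without Ob replicate 2, with a median log2 fold change of −0.03. The score difference of the members became 0.11 with the same scaling and 0.10 when the scaling was computed anew. Oas2 moved furthest among the members that turned, from −0.11 to 0.73 on the log2 scale. Xaf1 (−0.34), Zbp1 (−0.22), Ifih1 (−0.20) and Igtp (−0.31) remained lower. In 33 of the 39 genes the difference between the group means was smaller than the difference between the Ob libraries, as in 52.6% of all genes tested.

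**Figure D4:**
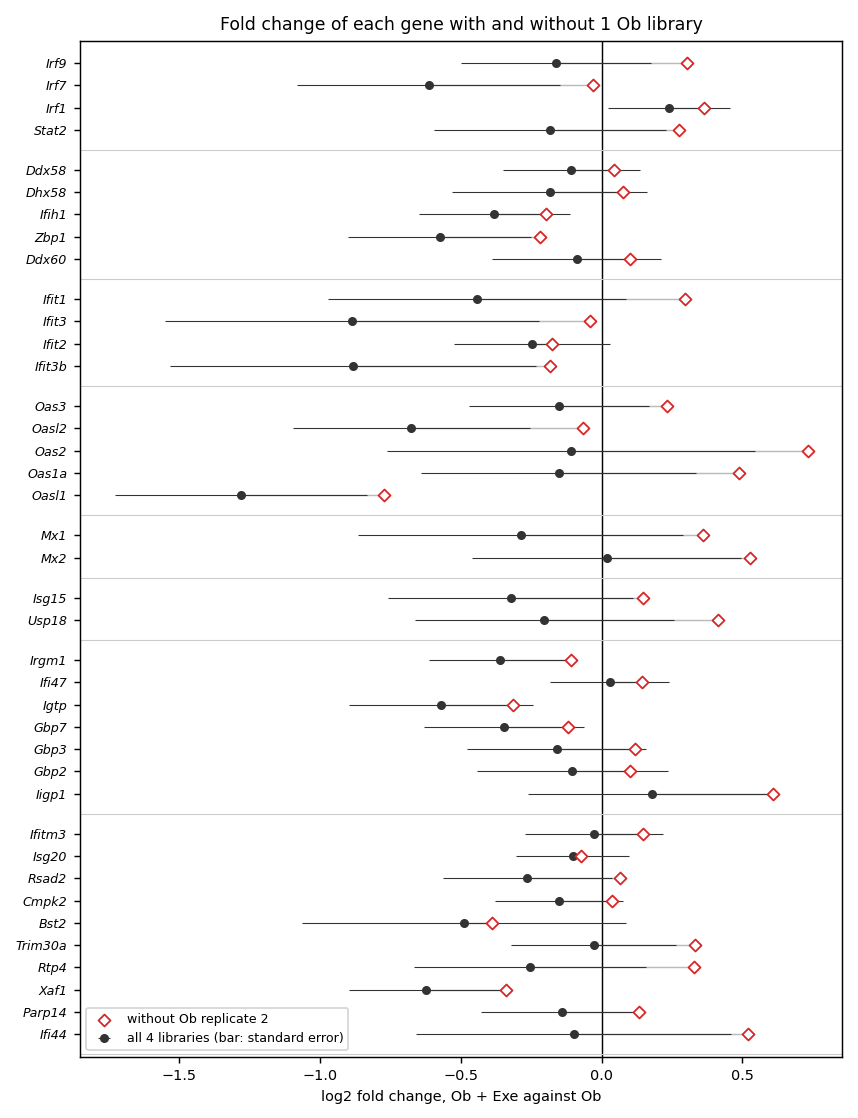
The log2 fold change of Ob + Exe against Ob (x axis) for each gene with all 4 libraries (black points, bars are the standard error) and without Ob replicate 2 (open diamonds). The median moves from −0.18 to 0.10, and Oasl1 is the lowest gene in both.

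The upstream genes of the pathway were looked at for the same pattern. Of 21 interferon genes, 20 were listed at 0 in all 4 libraries, and Ifng, which encodes interferon gamma, was at 0.194 and 0.0900 FPKM in Ob and at 0 and 0.302 FPKM in Ob + Exe. The receptor subunit Ifnar1 had 17.5 and 18.2 FPKM in Ob and 21.8 and 20.6 FPKM in Ob + Exe. Its partner Ifnar2 had 36.3 and 39.2 FPKM in Ob and 29.7 and 30.7 FPKM in Ob + Exe. The subunits of the type I receptor thus differed in opposite directions, and Ifnar2 shares 9.46% of its exon bases with Gm21970. The groups did not overlap in either subunit. Such separation was common, with 18.7% of all genes tested lower in Ob + Exe without overlap and 14% higher. Among the 6 receptor genes 1 was lower in this way and 4 were higher, Ifngr2 among them. Ifngr1 had 58.9 and 51.2 FPKM in Ob and 46.5 and 54.5 FPKM in Ob + Exe, and Ifngr2 had 15.9 and 20.5 FPKM in Ob and 30.04 and 24.3 FPKM in Ob + Exe. Ob replicate 2 was the highest library for 1 of 6 receptor genes and lay above Ob replicate 1 for 5, and none of the 6 was called or had an unadjusted p under 0.05 (limma).

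Ob replicate 2 was the highest library for none of the 8 JAK-STAT carriers, and none of them was called or had an unadjusted p under 0.05 (limma). Jak1 had 42.0 and 34.6 FPKM in Ob and 39.2 and 50.3 FPKM in Ob + Exe, and Tyk2 had 7.33 and 8.97 FPKM in Ob and 15.3 and 8.23 FPKM in Ob + Exe. Ob replicate 2 was the lowest library for Jak1, and for Tyk2 it lay above Ob replicate 1 but below Ob + Exe replicate 1. Of 16 negative regulators 1 was called, Trex1, a nuclease that clears cytosolic DNA, which was lower. It had 5.47 and 4.08 FPKM in Ob, 1.49 FPKM in Ob + Exe replicate 1 and was listed at 0 in Ob + Exe replicate 2, and all of its exon bases are shared with Atrip, so that the genes cannot be told apart. Socs1, an inhibitor of JAK kinases, had 1.51 and 1.94 FPKM in Ob and 0.959 and 1.21 FPKM in Ob + Exe. None of 20 tested genes of nucleic acid sensing upstream of interferon was called or had an unadjusted p under 0.05 (limma), and Ob replicate 2 was the highest library for 8 of them (40%) and lay above Ob replicate 1 for 15.

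A wider list of other interferon-stimulated genes held 87 tested genes, of which 58 were lower and 29 higher in Ob + Exe and none was called (limma; 4 had an unadjusted p under 0.05, and none an adjusted p under 0.05). Ob replicate 2 was the highest library for 51 of the 87 (58.6%) and lay above Ob replicate 1 for 69. The widest excess was that of Oas1g, a close copy of Oas1a, with 1.42 and 8.16 FPKM in Ob and 5.17 and 2.996 FPKM in Ob + Exe. Ifi27l2a had 42.2 and 105 FPKM in Ob and 60.3 and 34.1 FPKM in Ob + Exe. Uba7, the enzyme that activates ISG15 for its attachment, had 52.3 and 113 FPKM in Ob and 78.8 and 47.0 FPKM in Ob + Exe. In these 3 genes, as in Isg15 and Usp18, Ob replicate 2 was the highest library and Ob + Exe replicate 1 the next. Ifitm6 did not, with 581 and 387 FPKM in Ob and 660 and 868 FPKM in Ob + Exe. An ISRE core stood in the promoter window of 45.1% of the 71 genes of this list that had one.

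Markers of other marrow cells were set beside the members, since in bulk RNA fewer cells of a type and less RNA per cell cannot be told apart. Of 96 tested markers of 8 cell classes 7 were called, all lower in Ob + Exe, against 2.73% of all genes tested that were called lower. The count fell to 1 without Ob replicate 1 and to 2 without Ob replicate 2, and it rose to 16 without Ob + Exe replicate 1. The 7 were Lair1 and Ly6d of the plasmacytoid dendritic cell list, Cd79a and Igll1 of B cells, Gp1bb and Treml1 of megakaryocytes and platelets, and Col1a1 of stromal cells. All 14 neutrophil markers were lower in Ob replicate 2 than in Ob replicate 1, with a summed level of 51410 and 29254 FPKM in Ob and 38100 and 68023 FPKM in Ob + Exe. The 12 markers of T and natural killer cells summed to 74.8 and 43.6 FPKM in Ob and 78.0 and 53.4 FPKM in Ob + Exe. Ob replicate 2 was thus the lowest library for the sum of both lists. It was the highest for the B cell markers, which summed to 253 and 266 FPKM in Ob and 196 and 161 FPKM in Ob + Exe. It was neither for the erythroid sums (73531 and 73642 FPKM in Ob, 54698 and 81840 FPKM in Ob + Exe). The same held for megakaryocytes and platelets (480 and 359 FPKM in Ob, 394 and 145 FPKM in Ob + Exe) and for stromal cells (132 and 185 FPKM in Ob, 128 and 188 FPKM in Ob + Exe). For the 12 markers of plasmacytoid dendritic cells, a major source of type I interferon, the sums were 144 and 133 FPKM in Ob and 105 and 96.0 FPKM in Ob + Exe. Siglech, their surface lectin, had 7.90 and 7.04 FPKM in Ob and 10.9 and 7.58 FPKM in Ob + Exe. It was 1 of the 2 markers of this list that were higher in Ob + Exe, while the other 10 were lower. The median log2 fold change of the 12 was −0.51, and Ob replicate 2 was the highest library for 3 of them. Cox6a2 of this list was at 1.94 and 1.09 FPKM in Ob and at 2.34 FPKM in Ob + Exe replicate 1, and it was listed at 0 in Ob + Exe replicate 2. The sums of monocyte and macrophage markers were 600 to 648 FPKM in Ob and 611 to 666 FPKM in Ob + Exe. The part of cell composition in the level of the interferon-stimulated genes was not tested.

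Some members share sequence, which limits how far they can be told apart. The transcripts of Ifit3 and Ifit3b were 98.0% identical over their aligned bases, and 18.5% of the 150-base stretches of Ifit3 occurred in Ifit3b. Oas1a and Oas1g were 97.5% identical, with 32.4% of the stretches of Oas1a found in Oas1g. Exon bases were shared with an overlapping gene in 12 members, with over 10% of the exon bases in Rtp4 (13.9%) and Gbp7 (11.3%). The division of a gene among its transcripts was unstable, so that the text stays with sums per gene. The leading transcript of Irf9 held 33.3% and 84.6% of the gene in the Ob libraries, against 64.4% and 0% in those of Ob + Exe. That of Rsad2 held 99.9% of the gene over the mean of the libraries.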

How the data were processed

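RNA-seq of tibial marrow was compared between 2 Ob and 2 Ob + Exe libraries, grouped by their labels. Per the study's methods, poly-A RNA was sequenced as 150 bp pairs, trimmed with fastp, freed of rRNA and aligned to GRCm38 with HISAT2, and the authors ran StringTie on the SAMtools-filtered alignments with the GENCODE vM25 annotation. The authors deposited the coverage (a signal without normalization for depth) and the FPKM of each of 142604 transcripts. Library preparation is not described as stranded, so overlapping genes on opposite strands can share reads.

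FPKM was summed per gene, scaled by median-of-ratios factors from genes of at least 1 FPKM, and tested as log2(FPKM + 0.1) with limma 3.58.1 in R 4.3.3 (eBayes with intensity trend, 2 residual and 3.73 prior degrees of freedom) over the 18596 genes of at least 0.1 mean FPKM. The study's own test takes read counts, which these values are not. The fit was also run on simulated data, in which no single library was shifted for a set of genes. That run therefore does not bear on a pattern such as that of Ob replicate 2. Tables and figures were made with Python 3.11.15, pandas 2.3.3 and matplotlib 3.10.9. Values in every library are given for called members, the 12 with the smallest p, the 5 most abundant, Ifit3 and Ifit3b, and further members and other genes were named after their values were seen. Of the pathway lists, Ifnar1, Ifnar2, Ifngr1, Ifngr2, Jak1, Tyk2, Socs1, Siglech and called genes are named by rule, and 1 further gene is not reported here. The members and lists were chosen with earlier results of these data known. Alternatives were other minima and pseudocounts, a fit without scaling or without the intensity trend, quantile normalization, limma voom (on read equivalents), a replicate block and leaving out each library. Only 2 libraries stand behind each group mean, which limits the precision. Exon overlaps were read from GENCODE vM21, where 38 of the 39 members have the same span.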

Additional observations from a re-analysis of the deposited data

How the results depend on the processing

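Over the 39 log2 fold changes, the direction and the call were kept for all under a minimum of 1 FPKM, pseudocounts of 0.01 and 1 and both block fits. Ifi47 turned to −0.054 with no scaling and −0.019 with quantile normalization, and Mx2 to −0.061 with no scaling and −0.30 with limma voom. The count of called members fell from 1 to 0 with no intensity trend and with no minimum, and ran from 0 to 1 over the libraries left out, where Bst2 was called without Ob + Exe replicate 1 (−1.40) and Oasl2 without Ob replicate 1 (−1.30). The score difference ran from −0.37 to −0.26 over the other settings and from −0.69 to 0.10 over the libraries left out. Called pathway genes rose from 1 to 2 with no intensity trend, no scaling and quantile normalization, and ran from 1 (without either Ob library) to 6 (without Ob + Exe replicate 2) over the libraries left out. Called cell markers fell from 7 to 4 with a pseudocount of 1, and ran from 1 without Ob replicate 1 to 16 without Ob + Exe replicate 1, with 2 without Ob replicate 2. The deviations of same-numbered libraries from their group means had a correlation of −0.11 over all genes tested. Over genes of at least 1 FPKM it was −0.24, and the replicate numbers were not taken as pairs. With the replicate block 776 genes were called in place of 690, and with the crossed pairing, added after seeing the data, 782, and the members called stayed at 1 in both. An adjusted p under 0.05 was reached by 28 genes with the block, by 6 with the crossed pairing and by none without a block, and 1 member with the block and 6 with the crossed pairing had an unadjusted p under 0.05, against 1 without a block. Ob replicate 2 was the highest library for 37 or 38 members under each scaling, pseudocount, minimum, voom and left-out library that kept it, which was also added after seeing the data. The causes were not tested.

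The log2 fold changes of 25 members changed sign when 1 library was left out. For 23 of them the lowest value came without Ob replicate 1 and the highest without Ob replicate 2. That the former lay below the latter restates that Ob replicate 2 was above Ob replicate 1 in every member. Among factors and sensors the values ran from −0.64 to 0.30 for Irf9, from −0.66 to 0.28 for Stat2, from −0.28 to 0.044 for Ddx58 and from −0.30 to 0.10 for Ddx60. In the IFIT, OAS and Mx families they ran from −1.20 to 0.30 for Ifit1, from −0.81 to 0.49 for Oas1a, from −0.97 to 0.73 for Oas2, from −0.56 to 0.23 for Oas3, from −0.95 to 0.36 for Mx1 and from −0.51 to 0.53 for Mx2. They ran from −0.81 to 0.15 for Isg15 and from −0.84 to 0.41 for Usp18. In the GTPases they ran from −0.33 to 0.10 for Gbp2, from −0.45 to 0.12 for Gbp3, from −0.10 to 0.14 for Ifi47 and from −0.27 to 0.61 for Iigp1. Among other effectors they ran from −0.35 to 0.036 for Cmpk2, from −0.73 to 0.52 for Ifi44, from −0.22 to 0.15 for Ifitm3, from −0.43 to 0.13 for Parp14, from −0.61 to 0.064 for Rsad2, from −0.86 to 0.33 for Rtp4 and from −0.41 to 0.33 for Trim30a. For the other 2 genes, Bst2 (−1.40 to 0.42) and Dhx58 (−0.53 to 0.15), the extremes came without Ob + Exe replicate 1 and without Ob + Exe replicate 2.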
